A study of Mus musculus with 8 samples.

Results

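The oligodendrocyte lineage was followed through 36 genes of the 24527 in the count table, taken by gene symbol. All 36 were measured in all 8 libraries. Of the 36, 5 mark precursor cells, 3 mark cells that are newly becoming oligodendrocytes, 3 are transcription factors of the whole lineage, and 25 belong to myelinating cells. The 25 comprise 2 transcription factors of myelination, 11 genes of myelin structure, 4 of myelin lipid metabolism and 8 others of mature oligodendrocytes. The animals were wild-type C57BL/6J males, aged 20 weeks, and the tissue was hippocampus. Control mice (4) came from mothers on a low phytoestrogen diet, and BPA mice (4) from mothers on that diet with 50 mg bisphenol A per kg of feed. Bisphenol A (BPA) is a building block of plastics that can bind hormone receptors. The diets covered gestation and lactation, and every offspring ate the control diet from weaning on postnatal day 21. The question here was whether precursor and myelinating transcripts differed in adulthood between the groups, and whether they differed in the same way.

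Oligodendrocytes wrap axons in myelin, a stack of membrane rich in cholesterol and galactolipids that speeds conduction. In the adult hippocampus they arise from precursors that persist through life, pass through a short premyelinating stage, and then express the myelin programme under Sox10 and Myrf. A hippocampal sample contains both stages together with neurons and other glia. In such bulk tissue, fewer cells of a type and less RNA per cell cannot be told apart.

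Library totals were 27135100 to 40793200 counts in controls and 43120000 to 54013900 in BPA mice, so depth did not overlap between the groups and cannot be told apart from diet. Of the 36 genes, Nkx6-2 had the fewest reads over the 8 libraries, 865, and Mbp the most, 273024. The smallest count of any of them in 1 library was 60, for Gal3st1. Hippocampal markers were present in every library (7 genes, summed level 498 to 559 CPM, counts scaled by TMM-adjusted library size). Prx, a marker of Schwann cells, the myelinating cells of peripheral nerve, was at 1.296 ± 0.354 CPM (control) and 1.103 ± 0.108 CPM (BPA). Choroid plexus markers (7 genes) summed to 1900.1 CPM in control replicate 2 against 62.2 to 121 CPM in the other controls, and to 454 CPM in BPA replicate 3 against 35.4 to 164 CPM in the other BPA mice.

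Per kilobase of exon, the myelin genes spanned nearly the whole range of the 36. Mbp, which compacts the myelin membrane, was highest, at 101 in controls and 99.01 in BPA mice (mean CPM per kb). Mal, a raft proteolipid, followed at 67.5 in controls and 69.99 in BPA mice, then Car2, a carbonic anhydrase, at 59.3 in controls and 54.03 in BPA mice, Cryab, a small heat shock protein, at 39.9 in controls and 37.7 in BPA mice, and Cldn11, which forms the tight junctions of myelin, at 36.4 in controls and 35.6 in BPA mice. Enpp6, a choline phosphodiesterase of newly forming oligodendrocytes, was lowest at 1.07 in controls and 0.905 in BPA mice. Among precursor genes Cspg5 stood highest at 20.7 in controls and 21.8 in BPA mice, and Pdgfra was at 7.69 in controls and 7.81 in BPA mice. Cspg5 is also made by neurons and astrocytes. The lengths are unions of all annotated exons, so genes with alternative exons come out too low on this scale. The levels per kb of Mbp and Mal, and of Mal and Car2, did not overlap within either group, while those of neighbours further down the order were often closer than their spread.

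**Figure D1:**
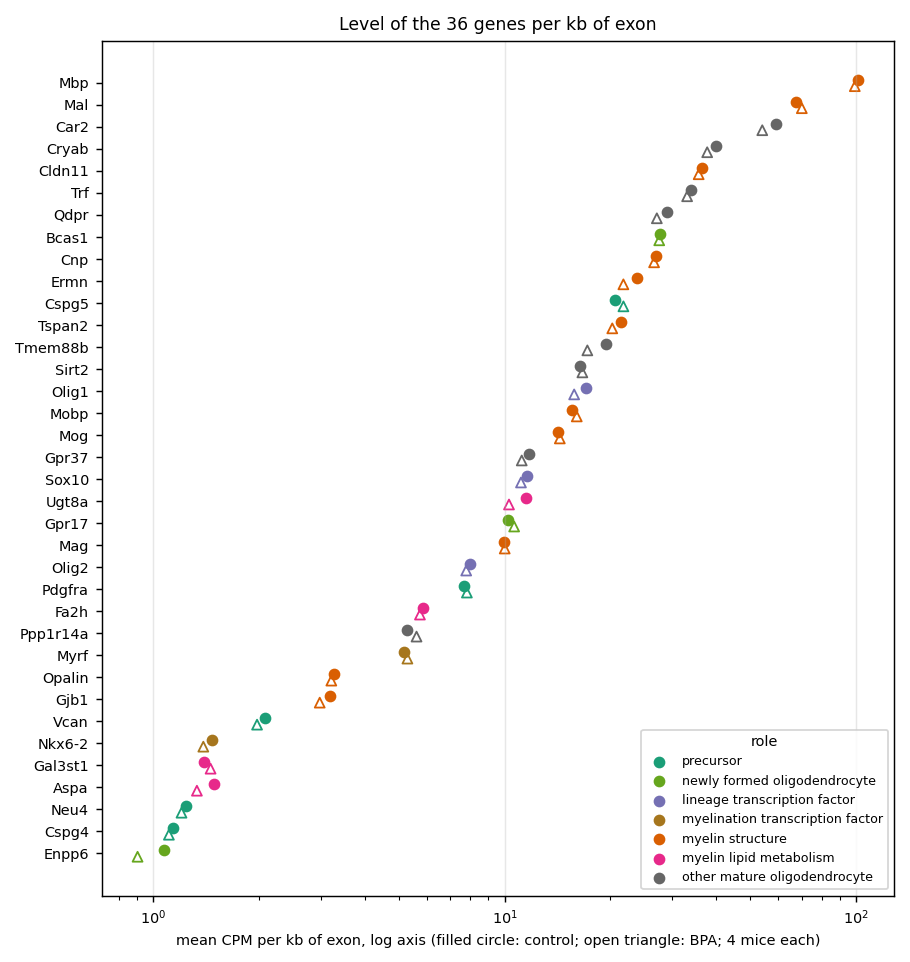
Mean level of each of the 36 genes in CPM per kb of exon (log axis), with filled circles for the 4 control mice and open triangles for the 4 BPA mice, coloured by role. Mbp is at the top with 101 in controls and Enpp6 at the bottom with 1.07, and the paired symbols lie close together throughout.

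None of the 36 genes passed the test over all genes. It came from edgeR (quasi-likelihood, Benjamini-Hochberg adjustment over 15434 genes, threshold 0.05) and called 0% of all genes tested. Adjusted p of the 36 genes ran from 0.955 to 0.994. Before adjustment, 698 of all genes and 4 of the 36 had an edgeR p under 0.05, and DESeq2 gave 7 calls over all genes, 0 of them among the 36. All 4 members were lower in BPA mice and belonged to myelinating cells: Ugt8a, Tmem88b, Ermn and Car2. They are 11.1% of the 36, where 2.3% of all genes tested were lower at that level. No member was higher at that level, where 2.22% of all genes were. The 36 were chosen with earlier results of these data known, so these shares do not test the list. Leaving out 1 library at a time gave 3 to 6 members at that level, with 3 (Olig1, Ugt8a and Tmem88b) without control replicate 2, so that Ermn and Car2 left the count, and 6 without control replicate 3. Ermn also left it without BPA replicate 3, and Car2 without control replicate 4 or BPA replicate 4. The count over all genes, in either direction, moved as well, from 354 without BPA replicate 2 to 1167 without control replicate 3. It was 675 without control replicate 2. When both libraries with the highest choroid plexus markers were left out, Olig1, Tmem88b and Car2 were at that level, and Ugt8a and Ermn were not. With the log2 library total in the fit, Ugt8a and Ermn were at that level with Bcas1, Mbp, Gjb1 and Cryab, and Tmem88b and Car2 were not. After thinning to the smallest library, Olig1 joined the 4. Of all genes, 896 were at that level without both choroid-rich libraries, 523 with the library total in the fit and 664 after thinning.

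For all 36 genes the 95% interval of the fold stayed within 1.5-fold in both directions, as it did for 85.4% of all genes tested. Within groups, the median SD of log2 CPM was 0.101 over the 36 and 0.108 over all genes tested.

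**Figure D2:**
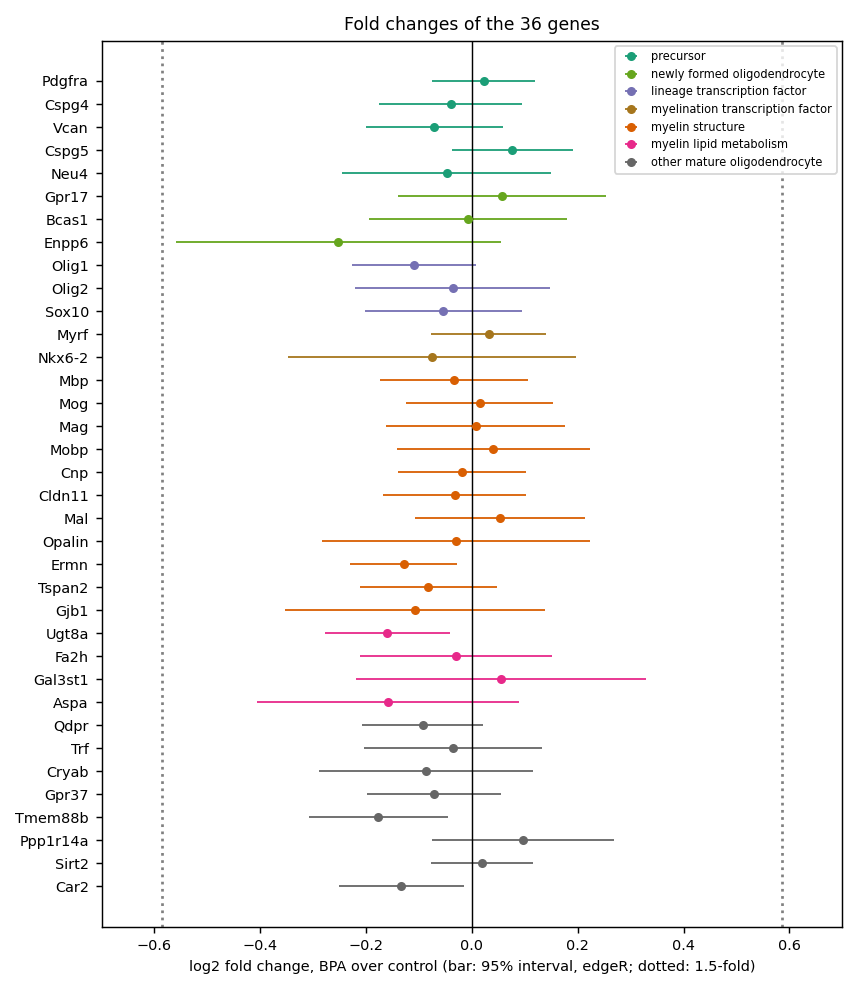
Log2 fold change of each gene, BPA over control, with its 95% interval from edgeR, in blocks by role, with dotted lines at 1.5-fold. The intervals of Ermn, Ugt8a, Tmem88b and Car2 lie below 0, and that of Enpp6 is the widest.

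Precursor genes were close to even between the groups. Of the 5, 3 had a lower and 2 a higher estimate in BPA mice, with a median log2 fold change of -0.040 beside 0.000049 over all genes tested. Pdgfra (chromosome 5, 75152292 to 75198215) encodes the receptor for platelet-derived growth factor that keeps precursors dividing. It was at 79.1, 77.9, 75.6 and 75.8 CPM in control replicates 1 to 4 and 76.2, 77.3, 84.02 and 75.8 CPM in BPA replicates 1 to 4. The groups overlapped, with BPA replicate 3 highest of the 8, and the fold was 1.02 (95% interval 0.949 to 1.09). Meningeal fibroblasts also express Pdgfra, and their 7 markers summed to 208, 202 and 145 CPM in BPA replicate 3 and control replicates 2 and 1, the 3 libraries with the highest Pdgfra, against 88.5 to 103 CPM in the others. Their part in the Pdgfra level was not tested. Cspg4, the NG2 proteoglycan on the precursor surface, was at 14.03, 13.1, 13.4 and 13.99 CPM in control replicates 1 to 4 and 13.6, 13.98, 13.1 and 12.3 CPM in BPA replicates 1 to 4. The groups overlapped, with a fold of 0.973 (95% interval 0.886 to 1.07). Vcan, a large matrix proteoglycan that precursors secrete, was at 31.2, 29.5, 29.1 and 30.4 CPM in control replicates 1 to 4 and 26.05, 29.9, 30.98 and 27.5 CPM in BPA replicates 1 to 4. BPA replicates 1 and 4 were the lowest of the 8 libraries, the other BPA mice lay within the control range, and the log2 fold change was -0.071 ± 0.059 (± SE, here and throughout). Cspg5, a membrane proteoglycan, was at 209, 198, 222 and 203 CPM in control replicates 1 to 4 and 219.9, 232, 222 and 203 CPM in BPA replicates 1 to 4, again with overlap (0.076 ± 0.053). Neu4, a sialidase, was at 5.77 ± 0.535 CPM (control) and 5.59 ± 0.255 CPM (BPA), mean ± SD of 4 mice each as in all such pairs, with -0.048 ± 0.091.

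Single libraries set the direction for some of these. Without BPA replicate 3 the estimate for Pdgfra was -0.013, and without control replicate 1 that for Neu4 was 0.017. Vcan was at -0.029 without BPA replicate 1 and -0.11 without BPA replicate 3, and Cspg4 at -0.0062 without BPA replicate 4. Cspg5 was at 0.048 without BPA replicate 2. The median of the 5 ran from -0.059, without control replicate 2, to 0.017, without control replicate 1.

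Of 14 other genes of precursors and early stages, 7 had a lower and 7 a higher estimate, 0 passed the test and 0 had an unadjusted p under 0.05, with a median of -0.0064. The 3 with the smallest p were Ptprz1, a receptor phosphatase also made by astrocytes, at 403 ± 10.7 CPM (control) and 386 ± 16.7 CPM (BPA) (-0.063 ± 0.045), Cacng4, an AMPA receptor auxiliary subunit, at 3.96 ± 0.406 CPM (control) and 4.37 ± 0.359 CPM (BPA) (0.14 ± 0.11), and Pcdh15, a cadherin, at 12.9 ± 1.45 CPM (control) and 12.02 ± 0.888 CPM (BPA) (-0.10 ± 0.086).

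Of the 7 roles, the 3 genes of newly forming oligodendrocytes had the highest median within-group SD, 0.169 (log2 CPM), beside 0.0746 for the precursor genes. Enpp6 (chromosome 8, 46986887 to 47096762) was at 6.92, 8.31, 5.62 and 6.71 CPM in control replicates 1 to 4 and 7.42, 5.11, 5.58 and 5.09 CPM in BPA replicates 1 to 4. BPA replicates 2, 3 and 4 lay below every control, while BPA replicate 1 was second highest of the 8. Its fold was 0.839 (95% interval 0.678 to 1.04), the lowest estimate of the 36, with an edgeR unadjusted p of 0.0987. The log2 fold change of -0.25 ± 0.14 became -0.39 without BPA replicate 1 and -0.15 without control replicate 2. Gpr17, a receptor expressed for a short time as precursors start to differentiate, was at 58.4, 50.5, 57.9 and 45.7 CPM in control replicates 1 to 4 and 53.5, 57.8, 47.5 and 62.5 CPM in BPA replicates 1 to 4. The groups overlapped (0.057 ± 0.091), and the estimate was -0.0076 without control replicate 4 and -0.0061 without BPA replicate 4. Bcas1, a marker of early myelinating cells, was at 115, 112, 97.3 and 93.02 CPM in control replicates 1 to 4 and 95.4, 111, 91.8 and 117 CPM in BPA replicates 1 to 4, with a log2 fold change of -0.0071 ± 0.086 that changed sign without control replicate 1 or 2 or BPA replicate 1 or 3. In BPA replicate 4, Gpr17 and Bcas1 were the highest of the 8 libraries and Enpp6 the lowest. Gpr17 and Bcas1 ranked the 4 BPA mice in the same order, and in controls both were highest in replicate 1 and lowest in replicate 4. Enpp6 followed neither pattern.

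All 3 transcription factors of the lineage had lower estimates in BPA mice, none past the test. Olig1 (chromosome 16, 91269772 to 91271933), a basic helix-loop-helix factor, was at 37.4, 33.8, 36.9 and 39.2 CPM in control replicates 1 to 4 and 34.3, 32.6, 33.8 and 35.6 CPM in BPA replicates 1 to 4. All 4 BPA mice lay below control replicates 1, 3 and 4, control replicate 2 lay among them, and the fold was 0.927 (95% interval 0.855 to 1.005). Its log2 fold change was -0.11 ± 0.054 and ranged from -0.15 to -0.080 on leaving out 1 library. It was -0.021 with the log2 library total in the fit. Olig2, its neighbour on the chromosome, which specifies the lineage, was at 21.4, 22.3, 18.8 and 18.02 CPM in control replicates 1 to 4 and 21.04, 19.96, 16.9 and 20.8 CPM in BPA replicates 1 to 4. Those values overlapped (-0.037 ± 0.085), and the estimate turned positive without BPA replicate 3 (0.028) or control replicate 2 (0.016). Sox10, which holds the lineage's identity and activates myelin genes, was at 36.5, 35.1, 37.4 and 32.05 CPM in control replicates 1 to 4 and 36.4, 36.7, 31.4 and 31.4 CPM in BPA replicates 1 to 4, with overlap and a log2 fold change of -0.054 ± 0.068 (-0.018 without BPA replicate 4, -0.096 without control replicate 4).

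Myrf, which is required to start and maintain myelin gene expression, was at 46.5, 44.4, 45.6 and 40.6 CPM in control replicates 1 to 4 and 44.7, 46.7, 44.05 and 45.8 CPM in BPA replicates 1 to 4. The groups overlapped, with a fold of 1.02 (95% interval 0.948 to 1.103), and the log2 fold change of 0.032 ± 0.050 was -0.0067 without control replicate 4. Nkx6-2, a homeodomain factor of mature oligodendrocytes, was at 2.496, 2.53, 3.16 and 3.05 CPM in control replicates 1 to 4 and 2.97, 2.59, 2.54 and 2.51 CPM in BPA replicates 1 to 4. Control replicates 3 and 4 and BPA replicate 1 were the high libraries, and the log2 fold change of -0.075 ± 0.13 was -0.012 without control replicate 3.

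Of the 11 genes of myelin structure, 7 had a lower and 4 a higher estimate, with a median log2 fold change of -0.030. Mbp (chromosome 18, 82475146 to 82585637) was at 944, 865, 879.7 and 744 CPM in control replicates 1 to 4 and 842, 875, 791 and 846 CPM in BPA replicates 1 to 4. Control replicate 1 was the highest and control replicate 4 the lowest of all 8, with the BPA mice between them, and the fold was 0.977 (95% interval 0.887 to 1.08). Mog, an immunoglobulin-like protein of the outermost myelin surface, was at 24.4, 26.4, 21.6 and 24.3 CPM in control replicates 1 to 4 and 24.8, 22.8, 25.1 and 25.1 CPM in BPA replicates 1 to 4, a fold of 1.01 (95% interval 0.918 to 1.11). Mag, which lies at the inner face against the axon, was at 42.9, 45.4, 37.2 and 36.4 CPM in control replicates 1 to 4 and 45.1, 38.3, 41.6 and 38.05 CPM in BPA replicates 1 to 4, a fold of 1.005 (95% interval 0.894 to 1.13). For both the groups overlapped, and the log2 fold changes of 0.015 ± 0.064 and 0.0069 ± 0.078 changed sign with single libraries.

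Ermn, a cytoskeletal protein of mature oligodendrocytes (chromosome 2, 58045113 to 58052864), was the only 1 of the 36 whose groups did not overlap. It was at 87.00, 92.1, 82.2 and 84.6 CPM in control replicates 1 to 4 and 79.8, 81.9, 75.5 and 79.1 CPM in BPA replicates 1 to 4. The highest BPA value, 81.9 CPM, lay just under the lowest control value, 82.2 CPM. The fold was 0.915 (95% interval 0.853 to 0.981) and the log2 fold change -0.13 ± 0.047, with an edgeR unadjusted p of 0.0169, and from -0.15 to -0.097 on leaving out 1 library. This is 2.78% of the 36 genes lower without overlap, where 1.43% of all genes were. No member was higher without overlap, where 1.37% of all genes were. Exons of Galnt5 overlap Ermn on the opposite strand.

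The remaining structural genes differed by less than their spread. Tspan2, a tetraspanin, was at 102, 106, 96.3 and 104 CPM in control replicates 1 to 4 and 99.03, 86.99, 106 and 92.7 CPM in BPA replicates 1 to 4, with BPA replicates 2 and 4 lowest (-0.083 ± 0.060; -0.037 without BPA replicate 2 and -0.13 without BPA replicate 3, there with an unadjusted p under 0.05). Mal was at 187 ± 11.7 CPM (control) and 194 ± 22.02 CPM (BPA) (0.052 ± 0.074; -0.026 without BPA replicate 4), and Mobp, a small basic myelin protein, at 107 ± 12.6 CPM (control) and 109.9 ± 10.8 CPM (BPA) (0.040 ± 0.084; -0.029 without BPA replicate 4). Cnp, the enzyme that keeps cytoplasmic channels in myelin open, was at 97.99 ± 5.34 CPM (control) and 96.8 ± 6.33 CPM (BPA) (-0.018 ± 0.056). Cldn11 was at 68.1 ± 2.23 CPM (control) and 66.6 ± 6.301 CPM (BPA) (-0.033 ± 0.062). Opalin, a membrane glycoprotein, was at 9.66 ± 1.68 CPM (control) and 9.48 ± 0.845 CPM (BPA) (-0.030 ± 0.12; 0.054 without control replicate 2). Gjb1, a connexin of oligodendrocyte gap junctions, was at 5.45 ± 0.869 CPM (control) and 5.09 ± 0.224 CPM (BPA) (-0.11 ± 0.11; -0.031 without control replicate 2 and -0.19 without control replicate 4).

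Among the 4 genes of myelin lipid metabolism, 3 had lower estimates, with a median of -0.095. Ugt8a, which makes galactosylceramide, the characteristic lipid of myelin (chromosome 3, 125865271 to 125938619), had the smallest p of the 36. It was at 54.5, 55.8, 47.9 and 50.2 CPM in control replicates 1 to 4 and 47.6, 46.1, 45.02 and 48.1 CPM in BPA replicates 1 to 4. BPA replicate 4 lay just above control replicate 3, and the other BPA mice lay below every control. The fold was 0.895 (95% interval 0.825 to 0.971) and the log2 fold change -0.16 ± 0.054, with an edgeR unadjusted p of 0.0120 and an adjusted p of 0.955. It ran from -0.20 to -0.12 on leaving out 1 library. Aspa, which splits N-acetylaspartate to supply acetate, was at 8.28, 10.4, 7.52 and 9.26 CPM in control replicates 1 to 4 and 7.87, 7.62, 9.38 and 6.91 CPM in BPA replicates 1 to 4, with overlap and -0.16 ± 0.11 (-0.070 without control replicate 2, -0.25 without BPA replicate 3). Fa2h, which hydroxylates the fatty acids of these lipids, was at 17.6 ± 1.33 CPM (control) and 17.3 ± 1.99 CPM (BPA) (-0.030 ± 0.084; 0.017 without BPA replicate 2). Gal3st1, which adds sulfate to make sulfatide, was at 2.85 ± 0.421 CPM (control) and 2.98 ± 0.179 CPM (BPA) (0.054 ± 0.13; -0.031 without control replicate 4).

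Of the 8 other genes of mature oligodendrocytes, 6 had lower estimates, with a median of -0.079. Tmem88b, a membrane protein gene (chromosome 4, 155781591 to 155785874), was at 63.6, 74.8, 61.9 and 69.5 CPM in control replicates 1 to 4 and 61.1, 56.5, 62.00 and 59.1 CPM in BPA replicates 1 to 4. Control replicates 2 and 4 were the high libraries, BPA replicate 3 lay just above control replicate 3, and the other BPA mice lay below every control. The fold was 0.884 (95% interval 0.807 to 0.969). Its log2 fold change was -0.18 ± 0.061 (edgeR unadjusted p 0.0124), from -0.22 to -0.12 on leaving out 1 library. Car2 (chromosome 3, 14886273 to 14900770) was at 141, 152, 137 and 144 CPM in control replicates 1 to 4 and 133, 134, 138 and 118 CPM in BPA replicates 1 to 4. BPA replicate 4 was the lowest by a wide margin, BPA replicate 3 exceeded control replicate 3, and the log2 fold change was -0.13 ± 0.054 (unadjusted p 0.0298), or -0.087 without BPA replicate 4.

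The others were Qdpr, which recycles tetrahydrobiopterin, at 51.7 ± 2.900 CPM (control) and 48.4 ± 2.16 CPM (BPA) (-0.093 ± 0.052; -0.061 without BPA replicate 4), and Gpr37, an orphan-type receptor of oligodendrocytes, at 71.3 ± 5.68 CPM (control) and 67.9 ± 2.94 CPM (BPA) (-0.071 ± 0.058; -0.018 without control replicate 2). Cryab was at 59.1 ± 8.26 CPM (control) and 55.7 ± 5.04 CPM (BPA) (-0.086 ± 0.093; -0.023 without control replicate 1 and -0.18 without control replicate 4, there with an unadjusted p under 0.05). Trf, transferrin, the iron carrier that choroid plexus also makes, was at 112 ± 13.8 CPM (control) and 109.7 ± 7.12 CPM (BPA) (-0.037 ± 0.077), and at 0.047 without control replicate 2, the library with the most choroid plexus RNA. Sirt2, a deacetylase enriched in myelin, was at 82.7 ± 3.12 CPM (control) and 83.8 ± 3.09 CPM (BPA) (0.019 ± 0.045). Ppp1r14a, an inhibitor of myosin phosphatase, had the highest estimate of the 36, at 7.197 ± 0.575 CPM (control) and 7.68 ± 0.319 CPM (BPA) (0.097 ± 0.079; 0.063 without control replicate 3 and 0.15 without control replicate 4).

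**Figure D3:**
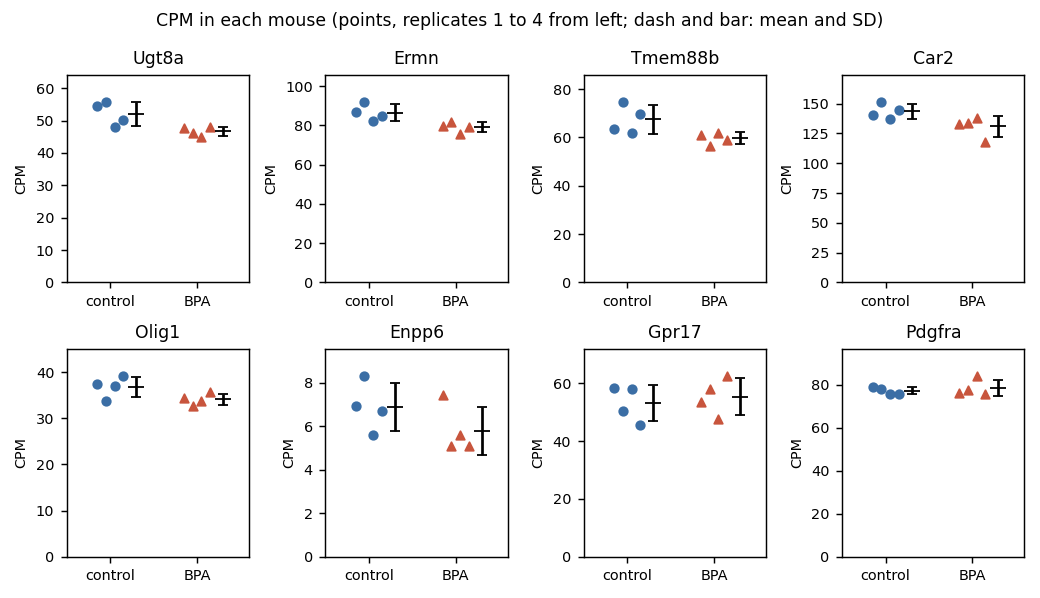
CPM of 8 of the genes in each mouse, with replicates 1 to 4 from left to right in each group and the mean and SD beside them. Ermn is the 1 panel without overlap, Enpp6 has BPA replicate 1 at 7.42 CPM apart from the other BPA mice at 5.09 to 5.58, and the groups overlap for Pdgfra and Gpr17.

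Of 26 mature oligodendrocyte genes outside the 36, 18 had a lower and 8 a higher estimate (69.2% lower, against 50.0% of all genes tested), with a median of -0.063, and 0 passed the test. Among those with an unadjusted p under 0.05 were Gjc3, a connexin, at 42.5 ± 2.74 CPM (control) and 38.9 ± 2.19 CPM (BPA) (-0.13 ± 0.058), and Plekhb1 at 180.0 ± 11.5 CPM (control) and 166 ± 7.64 CPM (BPA) (-0.12 ± 0.054). Both had lower estimates in BPA mice. At that level 3 of the 26 were lower and 0 higher, where 2.3% of all genes tested were lower and 2.22% higher. These genes were read in the same 8 libraries as the 36, so they are not separate evidence. Their mean log2 CPM was 5.01 in control replicate 2, against 4.77 to 4.88 in the other controls and 4.77 to 4.84 in BPA mice. How the count of lower estimates depends on that library was not tested.

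Upstream sequence is shown for the 2 myelinating genes and the 1 precursor gene with the smallest p among those with an entry in the RefSeq promoter table (GRCm38.p6), which matched 25 of the 36. Each run is the 250 bases before the start in that table, on the strand of the gene (minus for all 3). For Ugt8a and Vcan that start lies upstream of the GENCODE gene end used for positions elsewhere, and motif positions count from the RefSeq start. Capitals mark matches to 5 motifs searched on both strands: ACAAAG (SOX family), the other SOX motif AACAAT, the E-box CAGCTG, the GC box GGGCGG and the TATA box TATAAA. The windows are chr3:125938653-125938902 for Ugt8a, chr4:155785875-155786124 for Tmem88b and chr13:89742513-89742762 for Vcan.
Ugt8a: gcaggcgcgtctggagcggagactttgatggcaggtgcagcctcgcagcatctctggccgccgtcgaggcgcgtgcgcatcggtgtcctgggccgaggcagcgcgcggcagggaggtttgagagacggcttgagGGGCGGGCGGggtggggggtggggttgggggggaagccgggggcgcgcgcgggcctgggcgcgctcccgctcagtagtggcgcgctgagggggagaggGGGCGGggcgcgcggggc
Tmem88b: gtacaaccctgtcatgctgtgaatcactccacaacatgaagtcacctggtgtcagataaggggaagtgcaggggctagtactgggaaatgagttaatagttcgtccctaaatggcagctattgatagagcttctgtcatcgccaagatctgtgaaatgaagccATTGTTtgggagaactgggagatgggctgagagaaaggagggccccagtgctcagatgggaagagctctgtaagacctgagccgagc
Vcan: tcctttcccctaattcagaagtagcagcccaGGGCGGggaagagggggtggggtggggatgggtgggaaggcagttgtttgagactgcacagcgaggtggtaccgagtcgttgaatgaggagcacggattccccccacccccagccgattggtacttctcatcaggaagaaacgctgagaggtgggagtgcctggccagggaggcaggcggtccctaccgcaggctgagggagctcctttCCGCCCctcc
The Ugt8a window was 76.8% G or C, with GC boxes whose first bases lay at -116, -112 and -18 from the start, the first 2 overlapping each other. The Vcan window was 62.4% G or C, with GC boxes at -219 and, on the other strand, -10. The Tmem88b window, for a gene whose estimate was close to that of Ugt8a, was 50.0% G or C with no GC box and held AACAAT on the other strand at -87.

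Across the 33 promoter entries of the 25 genes, ACAAAG was found in 8 (24.2%, against 16.5% of all 32851 entries) and AACAAT in 5 (15.2% against 9.42%). GGGCGG was in 10 (30.3% against 32.7%), TATAAA in 3 (9.09% against 12.4%) and CAGCTG in 1, that of Aspa (3.03% against 13.0%). ACAAAG was found before Mag, Mobp, Cnp, Opalin, Gjb1 and Tspan2, all genes of myelin structure, and AACAAT before Olig2, Enpp6, Aspa, Gjb1 and Tmem88b. Some genes have several entries that share sequence. These are matches of letters only.

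The median log2 fold change was slightly below 0 for both myelinating and precursor genes. The mean summed level was lower in BPA mice for the first and higher for the second, but both sums overlapped between the groups. The precursor sum was mostly Cspg5, with a mean of 208 CPM (control) and 219 CPM (BPA). Neurons and astrocytes also make Cspg5, so that sum does not follow precursors alone. Of the other precursor genes, Pdgfra had a higher estimate and 3 had a lower one. The estimate was lower in BPA mice for 17 of the 25 myelinating genes, with a median log2 fold change of -0.034, and for 3 of the 5 precursor genes, with -0.040. Over all 36 genes, 25 were lower (69.4%, against 50.0% of all genes tested), with 20 without control replicate 2 and 30 without control replicate 4 as the extremes on leaving out 1 library. The myelinating median was -0.0058 without BPA replicate 2, -0.018 without control replicate 2, -0.075 without control replicate 4 and -0.086 without BPA replicate 1, where the precursor median was -0.056, -0.059, -0.029 and -0.024. Without control replicate 1 the myelinating median was -0.030 and the precursor median 0.017. After thinning every library to the smallest total, 26 of the 36 genes were lower and the medians were -0.058 for myelinating and -0.036 for precursor genes. Adding the log2 library total to the fit gave -0.12 for it, and the precursor median -0.077. Without control replicate 2 and BPA replicate 3 together, 14 of the 25 were lower and the medians were -0.010 for myelinating and -0.055 for precursor genes.

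The mean log2 CPM of the 25 myelinating genes was 5.40, 5.45, 5.29 and 5.29 in control replicates 1 to 4 and 5.36, 5.28, 5.32 and 5.30 in BPA replicates 1 to 4. That of the 5 precursor genes was 5.10, 4.99, 5.04 and 5.02 in controls and 4.99, 5.07, 5.06 and 4.98 in BPA mice. Both overlapped between the groups. The myelinating level minus the precursor level was 0.319 ± 0.0989 in controls and 0.289 ± 0.0764 in BPA mice (mean ± SD of log2 CPM, n = 4 each), with the highest value, 0.464, in control replicate 2 and the lowest, 0.204, in BPA replicate 2. The summed level of the 25 genes was 2427, 2420.4, 2262 and 2133 CPM in control replicates 1 to 4, and the BPA mice, at 2201 to 2278 CPM, all lay inside the control range. The summed level of the 5 precursor genes, most of it Cspg5, was 324 to 346 CPM (mean 335) in controls and 325 to 359 CPM (mean 345) in BPA mice, with overlap.

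**Figure D4:**
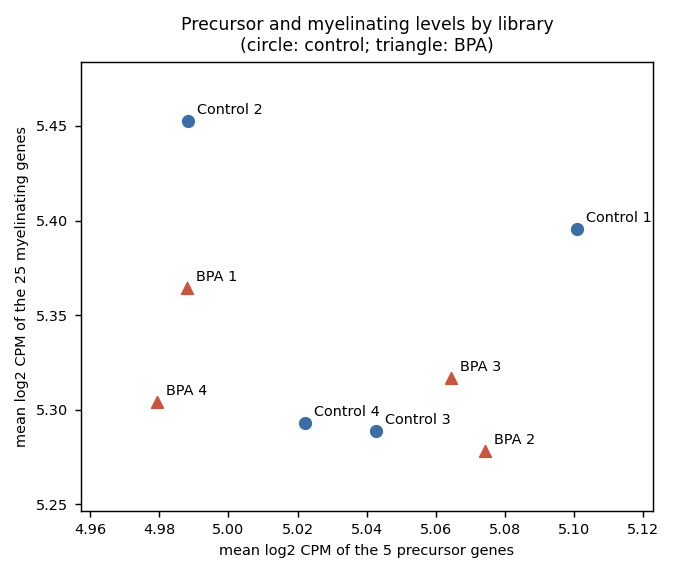
Mean log2 CPM of the 25 myelinating genes against that of the 5 precursor genes in each library, with circles for control and triangles for BPA mice. Control replicates 1 and 2 are the highest on the myelinating axis, at 5.40 and 5.45, and the groups overlap on both axes.

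Ratios of single genes within a mouse were close between the groups for Mag, Mog, Gpr17 and Bcas1 and lower in most BPA mice for Enpp6. Mag over Pdgfra, as a ratio of CPM, was 0.524 ± 0.0472 in controls and 0.521 ± 0.0474 in BPA mice. Mog over Pdgfra was 0.314 ± 0.0224 in controls and 0.313 ± 0.0183 in BPA mice, and Gpr17 over Pdgfra 0.689 ± 0.0763 and 0.710 ± 0.109. Bcas1 over Mog was 4.32 ± 0.377 in controls and 4.26 ± 0.597 in BPA mice, with overlap. Enpp6 over Pdgfra was 0.0893 ± 0.0133 in controls and 0.0743 ± 0.0154 in BPA mice, with BPA replicates 2, 3 and 4 below all controls. Enpp6 over Mog was 0.284 ± 0.0230 in controls and 0.237 ± 0.0428 in BPA mice. BPA replicates 2, 3 and 4, at 0.203 to 0.224, lay below all controls, at 0.260 to 0.315, and BPA replicate 1 was at 0.300 (n = 4 each).

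The library with the highest choroid plexus markers also led for most single myelinating genes. Control replicate 2 held the highest of the 8 values for 13 of the 25 myelinating genes and the lowest for 0, while for the 5 precursor genes it held the highest for 0 and the lowest for 2. Ependymal markers (6 genes) were also highest there, at 24.6 CPM summed against 13.3 to 14.9 CPM in the other controls and 10.7 to 17.6 CPM in BPA mice. Over both groups the estimate was lower in BPA mice for 7 of 7 choroid plexus markers (median log2 fold change -1.29) and 6 of 6 ependymal markers (-0.40), with 0 past the test. Excitatory neuron markers (8 genes) were lowest in control replicate 2, at 9086 CPM, where the other libraries ranged up to 10661 CPM. BPA replicate 3, second highest for choroid plexus markers, held the highest value for 2 and the lowest for 2 of the 25. Control replicate 4, the shallowest library, held the lowest of the 8 for 8 of the 25. The part of neighbouring tissue in the differences between groups was not tested beyond the values without these libraries.

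**Figure D5:**
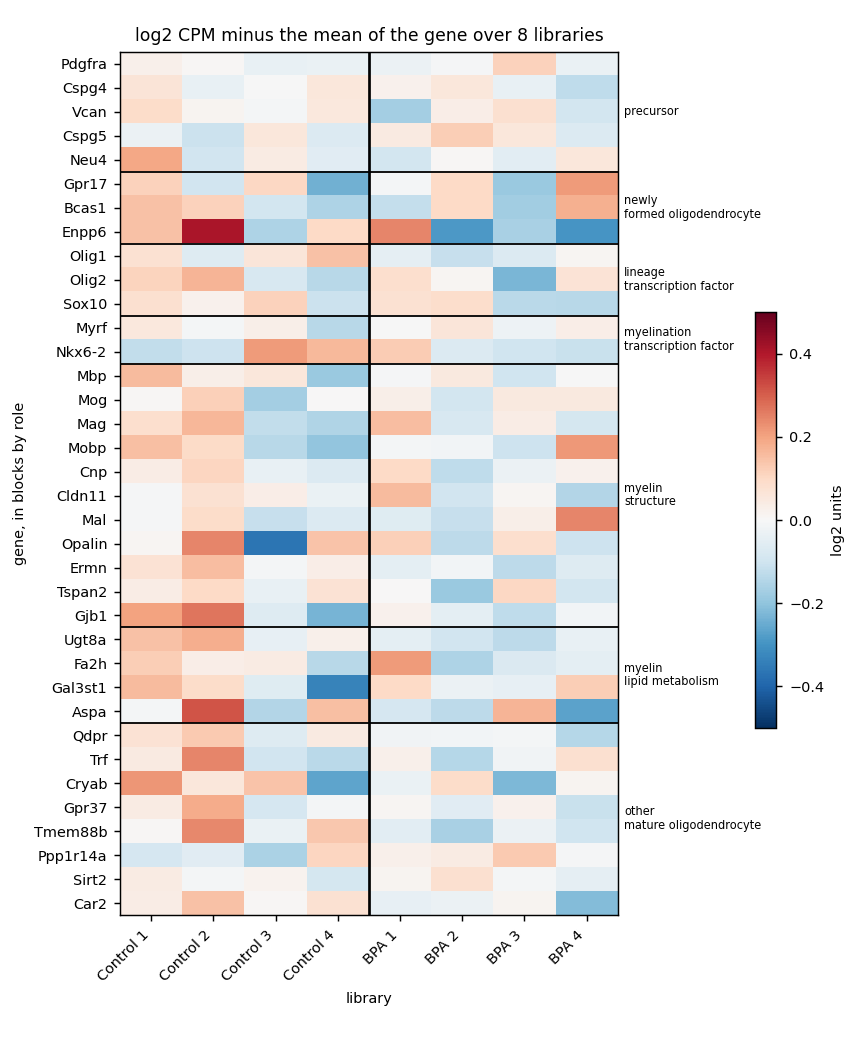
Log2 CPM of each gene in each library minus the mean of the gene over the 8 libraries (red above, blue below), in blocks by role, with a vertical line between control and BPA mice. Control replicate 2 is red for many myelinating genes, where it holds the highest value for 13 of 25, and control replicate 4 holds the lowest for 8.

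Markers of the other cell types of the hippocampus did not pass the test either. Excitatory neuron markers were lower for 5 of 8 (median -0.024), interneuron markers for 2 of 7 (0.041), astrocyte markers for 3 of 8 (0.034), microglia markers for 5 of 7 (-0.034) and endothelial and pericyte markers for 2 of 7 (0.039). Their summed levels overlapped between the groups, for example 2252 to 2406 CPM in controls and 2287 to 2399 CPM in BPA mice for astrocytes. Thalamus markers, from tissue beside the hippocampus that is rich in myelin, were lower for 2 of 6 (median 0.071). They summed to 129 to 146 CPM in controls and 133 to 142 CPM in BPA mice. Tcf7l2, among the 6, is also in the list of 26 mature oligodendrocyte genes, so the 2 lists are not separate.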

How the data were processed

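The values are whole-number read counts per gene symbol in 1 table deposited by the authors, not normalized. Trimmomatic 0.32, STAR 2.3.0e, featureCounts 1.5.0, DESeq2 and mm10 are named in the submitters' processing notes, and genes follow refGene per the file headers. RNA was polyA-selected and made into stranded libraries, per the labels' protocols. How strand was handled at counting is not stated in the labels, so counts are uncertain for the 11 genes with exons opposite another gene: Pdgfra, Gpr17, Bcas1, Olig1, Nkx6-2, Cnp, Ermn, Tspan2, Qdpr, Cryab and Sirt2. Columns were matched to samples by the library code in the titles. The labels do not say which mice were littermates, and p-values measure only the spread between these mice. Mice of 1 group differed by more than counting noise (chi-square per degree of freedom 10.2 to 24.8 over 12 pairs).

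Genes were filtered with filterByExpr of edgeR 4.0.16 (R 4.3.3), which left 15434, scaled by TMM and fitted with 1 group term over all 8 libraries; p is two-sided, and standard errors and 95% intervals derive from the F statistic. CPM use TMM library sizes. List means use log2 CPM with a prior count of 2. The fitting code was tested on simulated data. Alternatives were DESeq2 1.42.0 without the filter, limma-voom (limma 3.58.1), other scalings, no filter, thinning, covariates and left-out libraries. Positions and exon lengths come from GENCODE M21 (mm10). The 36 genes, their roles and the lists were chosen with earlier results of these data known, and the hippocampus list was added after the files were read. All 36 genes are named. Values in every library are given for the 2 with the smallest p and the highest per kb in each role, and for Pdgfra, Cspg4, Gpr17, Enpp6, Bcas1, Olig2, Sox10, Myrf, Mbp, Mog and Mag. Of the lists of other lineage genes, those with the smallest p are named, and some results are not reported here.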

Additional observations from a re-analysis of the deposited data

Results flagged for a closer look

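In 2 of 78 groups of 4 values (each gene and list mean in each diet group), 1 mouse stood apart from the other three by more than Dixon's 95% critical value for the gap divided by the range of the group. Mog in BPA replicate 2 was the lowest of its group, at 22.8 CPM against 24.8 to 25.1 CPM in the other BPA mice (gap over range 0.842). Qdpr in BPA replicate 4 was the lowest of its group, at 45.2 CPM against 49.3 to 49.7 CPM (0.923). Chance alone flags about 1 in 20 groups.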

How the results depend on the processing

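No member passed the threshold under any of the 18 alternatives run (lowest adjusted p of a member 0.629, without control replicate 3), and no gene of the table did except with DESeq2, which called 7. The precursor median ran from -0.059 to 0.017 and the myelinating median from -0.086 to -0.0058 on leaving out 1 library. With log2 library total as a covariate the myelinating median moved to -0.12, and after thinning to -0.058; the cause was not tested.

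Of the 36 genes, 17 kept the sign of their estimate throughout and 19 did not, in 50 of 648 values. With the depth covariate the log2 fold change was -0.00090 for Pdgfra, -0.12 for Gpr17, -0.080 for Myrf, 0.14 for Nkx6-2, -0.11 for Mag, -0.15 for Mobp, 0.0012 for Opalin, -0.16 for Gal3st1 and -0.076 for Sirt2. The estimates that moved furthest downward under it, without a change of sign, were those of Cryab (-0.37), Gjb1 (-0.36), Bcas1 (-0.25), Mbp (-0.23) and Olig2 (-0.22). Without both libraries with most choroid plexus RNA it was -0.0098 for Pdgfra, 0.082 for Bcas1, 0.078 for Olig2, 0.020 for Cnp, 0.022 for Opalin and 0.047 for Trf. After thinning it was -0.0090 for Mog. On leaving out 1 library, ranges that crossed 0 were -0.013 to 0.038 for Pdgfra, -0.090 to 0.017 for Neu4, -0.0076 to 0.12 for Gpr17, -0.070 to 0.047 for Bcas1, -0.085 to 0.028 for Olig2, -0.0067 to 0.056 for Myrf, -0.097 to 0.016 for Mbp, -0.035 to 0.060 for Mog, -0.045 to 0.067 for Mag, -0.029 to 0.100 for Mobp, -0.055 to 0.021 for Cnp, -0.094 to 0.0086 for Cldn11, -0.026 to 0.098 for Mal, -0.14 to 0.054 for Opalin, -0.11 to 0.017 for Fa2h, -0.031 to 0.12 for Gal3st1, -0.086 to 0.047 for Trf and -0.0062 to 0.037 for Sirt2.

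Control and BPA mice share replicate numbers, but same-numbered libraries did not deviate together (r of deviations over genes -0.37 to 0.070 in 4 pairs, and 0 of 8 libraries correlated best with their own number). With the replicate block, 0 genes passed, 498 had an unadjusted p under 0.05 (698 without the block), and the medians were -0.031 for myelinating and -0.040 for precursor genes.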
